A study of Mus musculus with 8 samples.

Results

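*Gata4*, the mouse gene for the transcription factor GATA4, was followed in RNA sequencing of fibroblasts cultured from a mouse embryo (MEFs), which are cells of connective tissue. It is 1 of the 875 genes in the deposited expression table. It was selected on its measured levels, near zero in control cells and highest in K27M cells. Its levels in control and K27M cells are therefore given as a description, with no test. Each of 4 groups had 2 libraries. All cells came from a line in which loxP sites flank exons of *Eed*, which encodes a core subunit of PRC2. The controls were these floxed parental cells. In the EZHIP group the cells carried a lentivirus for stable expression of human EZHIP, and in the K27M group a lentivirus for H3.3K27M. In the EED-null group a lentivirus for transient Cre had deleted *Eed*, and these cells were 1 selected clone. The table does not list *Eed*, and its deletion could not be checked from it. The table was restricted by the authors to genes that differed between EZHIP and control cells, and every gene in it differed by at least 2-fold between the means of these groups.

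GATA4 belongs to a family of zinc finger proteins that bind DNA at GATA motifs. It is known as a regulator of the developing heart, where it acts with partners such as TBX20, MEF2C and ISL1, and it also serves in endoderm, gonads and the coelomic lining. Polycomb repressive complex 2 (PRC2) methylates lysine 27 of histone H3 and keeps many developmental regulators silent in cells that do not use them. EZHIP and the K27M mutant of histone H3 both inhibit PRC2, while loss of EED removes its activity.

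In the mm9 build, *Gata4* (ENSMUSG00000021944.8) spans positions 63817759 to 63890529 of chromosome 14 and is transcribed from the minus strand. The annotation gives it 7 transcripts, the longest of which has 3400 bases in 7 exons. A value of the table, here called the signal, is the number of reads that RSEM estimated for a gene divided by a size factor of the library. It is not scaled by gene length. The libraries held between 209390 and 424561 estimated reads on the 875 genes, and 1 read was worth a signal between 0.738 and 1.39. A small amount of RNA from other cells had been spiked into the samples, and whether it entered the size factors is not given in the sources used here. In bulk RNA, a larger share of cells with *Gata4* transcripts and more transcripts per cell cannot be told apart.

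*Gata4* had a signal of 1.03 and 0 in the control libraries, which together held 1 read of the gene. It stood at 226 and 197 in the EZHIP libraries. The EED-null libraries gave 632 and 633. The K27M libraries gave 863 and 960.4. The order was thus K27M, EED-null, EZHIP and control, and no library of any group overlapped with those of another. The group means were 0.513 ± 0.726 for control, 212 ± 20.4 for EZHIP, 632 ± 0.437 for EED-null and 911 ± 69.1 for K27M (SD, n = 2 each). The EED-null libraries, with 456 and 653 estimated reads of the gene, differed by far less than their counting error, as their exact 95% Poisson intervals ran from 575 to 693 and from 585 to 683. Their SD is therefore no measure of the precision of this mean.

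**Figure D1:**
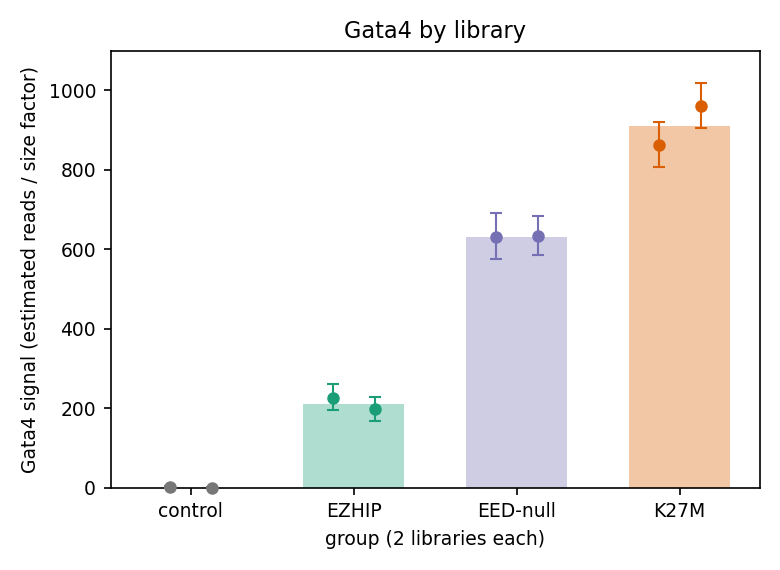
*Gata4* signal (estimated reads divided by the size factor) in each of the 8 libraries. Points are libraries, vertical lines their exact 95% Poisson intervals, which cover counting error only, and bars are group means. Both control libraries lie at or near 0, and the K27M libraries, at 863 and 960.4, are the highest.

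These levels rest on 364 reads in the EZHIP libraries, 1109 in the EED-null libraries and 2029 in the K27M libraries, each summed over the group. Against the 1 read in control, the ratio was 492 for EZHIP cells, with an exact 95% counting interval from 87.8 to 19496. It was 1473 for EED-null cells (264 to 58235) and 2127 for K27M cells (381 to 84036). These intervals describe the counting error of a near-zero control and are no test, since the gene was chosen on these levels. The lower limits depend on the second control library, which held no read. Without it they were 36.7, 110 and 159.

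Among the 3 lines, K27M cells had 1.44 times the mean signal of EED-null cells and 4.31 times that of EZHIP cells. The lowest K27M library was 1.36 times the highest EED-null library. The difference between K27M and EED-null cells was 0.52 on the log2(signal + 1) scale, under 2-fold. The SD between K27M replicates was 0.11 on this scale, and that of the EED-null replicates, 0.0010, is below counting error and sets no scale for the difference. Between K27M and EZHIP cells it was 2.10, with an SD of 0.14 in EZHIP cells.

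The comparison that the choice of the gene did not use is that of EED-null with EZHIP cells. Both EED-null libraries were higher than both EZHIP libraries, and the mean was 2.99 times as high. The log2 difference was 1.58 with a standard error of 0.316, and limma, fitted on all 875 genes, gave a Benjamini-Hochberg adjusted p of 0.00517. This p-value covers the spread between libraries and not that between clones or lines. The EED-null cells were 1 selected clone, so an effect of the clone and one of the deletion cannot be told apart. At an adjusted p under 0.05 and at least 2-fold, which is the rule for a call throughout, 25.1% of the listed genes were called higher in EED-null than in EZHIP cells and 19.8% lower. The test's standard error includes the spread of the control libraries at 1 read and 0. With a pseudocount of 0.1, which widens that spread on the log scale, the difference was 1.58 with an adjusted p of 0.237, and over all the alternatives the adjusted p ranged from 6.4e-05 to 0.237.

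Per kilobase of the longest transcript, *Gata4* had a signal of 268 in K27M cells, higher than 88.0% of the 850 genes with a single annotated locus. It had 186 in EED-null cells, higher than 87.4% of them, and 62.2 in EZHIP cells, higher than 68.2%. The median gene had between 27.8 per kilobase in control and 41.3 in K27M cells. In control, where the gene was near zero, 7.06% of them were below it.

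Of the 875 genes, 101 had at most 3 estimated reads in each control library, as *Gata4* did. These genes did not share an order among the 3 lines. The mean was highest in EED-null cells for 51 of them, in EZHIP cells for 28 and in K27M cells for 22. The order of *Gata4* was found for 10 genes, and the most frequent order, EED-null above EZHIP above K27M, for 41. In 20 of the 101 genes both K27M libraries were above every other library, and with up to 10 reads allowed in each control library there were 35 such genes. *Esx1* was just inside this group, with its lowest K27M library at 32.5 and its highest other library at 31.0. *Thrb* was just outside it, with 41.7 and 44.4.

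The 10 of these 20 genes with the highest K27M means were *Plxna4*, *Frmd4b*, *Bnc1*, *Gpm6a*, *Wt1*, *Gata4*, *Tmem108*, *Lrp2*, *Cd55* and *Gda*. *Plxna4*, which encodes a semaphorin receptor, had a mean signal of 3232 in K27M cells, against 133.8 in EZHIP and 83.7 in EED-null cells. *Wt1*, which encodes a zinc finger regulator of kidney, gonad and mesothelium, had 1145 in K27M, 29.0 in EZHIP and 60.1 in EED-null cells. *Bnc1*, which encodes the zinc finger protein basonuclin 1, had 1305 in K27M, 89.5 in EZHIP and 60.1 in EED-null cells. *Gata4* differed from most of these genes in how near the EED-null level came to that of K27M cells. Its EED-null mean was 69.4% of its K27M mean, the second highest share of the 20 genes after *Esx1* with 75.3%, and *Lrp2*, the gene of the endocytic receptor megalin, had 53.3%. The share was between 2.59% and 8.02% for the other 8 of the 10. The EZHIP mean of *Gata4* was 23.2% of its K27M mean, a share that 7 of the 20 genes exceeded. Over the 20 genes the median ratio of the K27M mean to the next highest group was 6.38, and that of *Gata4* was 1.44. These genes were selected on the same values, so no test was made.

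**Figure D2:**
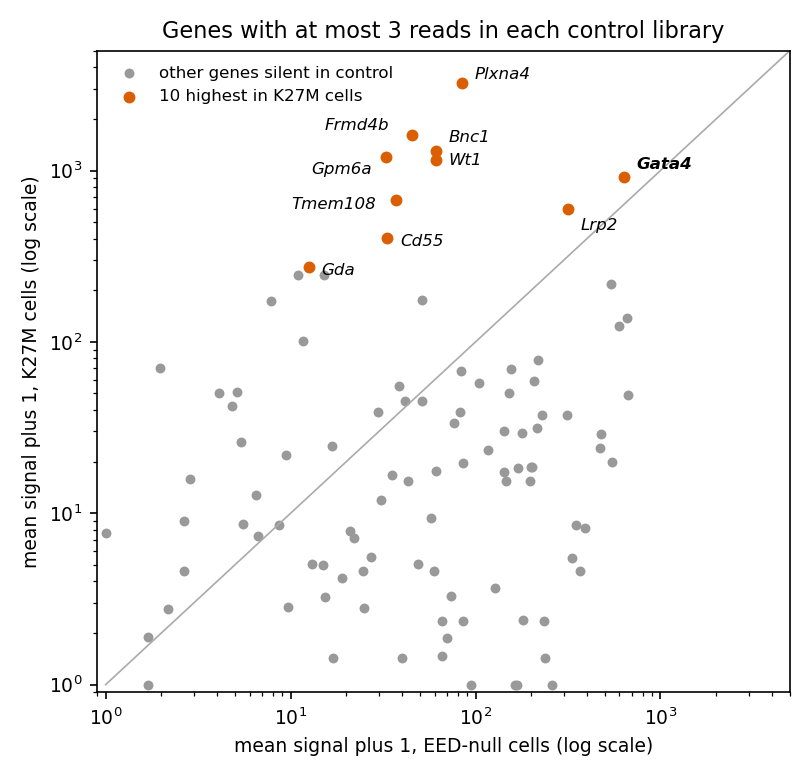
Mean signal plus 1 in EED-null cells (x axis) and K27M cells (y axis), both on log scales, for the 101 genes with at most 3 reads in each control library. Orange points are the 10 genes with the highest K27M means among those highest in K27M cells, and the line marks equal signal. *Gata4*, at 632 and 911, lies close to the line, and *Plxna4*, at 83.7 and 3232, far above it.

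Several of the genes highest in K27M cells are known from mesothelium, the cell layer that lines body cavities. A list of 15 mesothelial genes was drawn up after these values were seen, so it was given no test. In the table were 7 of them, *Msln*, *Upk3b*, *Upk1b*, *Wt1*, *Bnc1*, *Gpm6a* and *Rspo1*, and the other 8 were not analysed here. Of the 101 genes with at most 3 reads in each control library, 22 had their highest mean in K27M cells. This count was not made over all 875 genes. Of the 7 mesothelial genes, 5 met this limit of reads, and 5 were among the 20 genes above. The mean was highest in K27M cells for 6 of the 7, on a list chosen with these levels known. Their summed signal was 418 and 406 in the control libraries, 2917 and 2792 in the EZHIP libraries, 1009 and 1004 in the EED-null libraries, and 6582 and 8185 in the K27M libraries. The most abundant was *Msln*, the gene of mesothelin, in control, EZHIP and EED-null cells, and *Upk3b*, a uroplakin gene, in K27M cells with 2065 and 2699.7. In each control library 3 of the 7 were at 0. *Msln* itself was highest in EZHIP cells, with 2503 and 2402 against 823 and 1057 in K27M cells. Without *Msln* the sums were 15.4 and 20.7 in control cells, 414 and 389.9 in EZHIP, 233 and 253 in EED-null, and 5759 and 7128 in K27M libraries. The sums were thus higher in EZHIP than in EED-null cells, while *Gata4* was lower. The members did not all follow the sums. *Wt1* and *Rspo1* were lower in EZHIP cells, as *Gata4* was, with means of 29.0 and 27.8 against 60.1 and 50.3 in EED-null cells. *Msln*, *Upk3b*, *Upk1b*, *Bnc1* and *Gpm6a* had higher means in EZHIP than in EED-null cells. The part of these genes' source in the *Gata4* levels was not tested.

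The listed genes most like *Gata4* were ranked by Pearson's r on log2(signal + 1) over the 8 libraries, which fall into 4 groups, so that r mostly measures the group means. The r was highest for *Lrp2*, at 0.996, and the last of the 10 genes taken was *Rbm47*, which encodes an RNA-binding protein, at 0.988. Of the other 874 genes, 67 reached an r of at least 0.95, 363 were below 0, and the median was 0.242. The 10 were *Lrp2*, *Nrn1*, *Zfp423*, *Ccnd2*, *Thrb*, *Esx1*, *Chd7*, *Fam84b*, *Bex2* and *Rbm47*. In 8 of them the group means had the order of *Gata4*, and in *Fam84b* and *Bex2* the EED-null mean was the highest. *Gata4* and *Thrb* lie on chromosome 14, and the others on other chromosomes. By Spearman's rho, which uses ranks alone, 2 of these 10 were among the 10 highest. This count depends on how tied genes were ordered. *Esx1* had a rho of 0.994, and *Lrp2*, *Zfp423*, *Ccnd2* and *Rbm47* shared a rho of 0.976.

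*Lrp2* had 1.03 and 0.738 in control cells, 208 and 172 in EZHIP, 320.2 and 313 in EED-null, and 524 and 664 in K27M libraries. *Ccnd2*, which encodes cyclin D2, was detected in control cells at 529 and 443 and reached 1821 and 2204 in K27M cells. *Thrb*, which encodes a thyroid hormone receptor, was near zero in control and reached 41.7 and 46.3 in K27M cells. Likeness by r thus joined genes at different levels and with different steps between the lines. The K27M mean was 3.13 times the EZHIP mean in *Lrp2* and 1.24 times in *Ccnd2*, where it was 4.31 times in *Gata4*. At most 3 reads in each control library were found for 4 of the 10, *Lrp2*, *Thrb*, *Esx1* and *Bex2*.

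**Figure D3:**
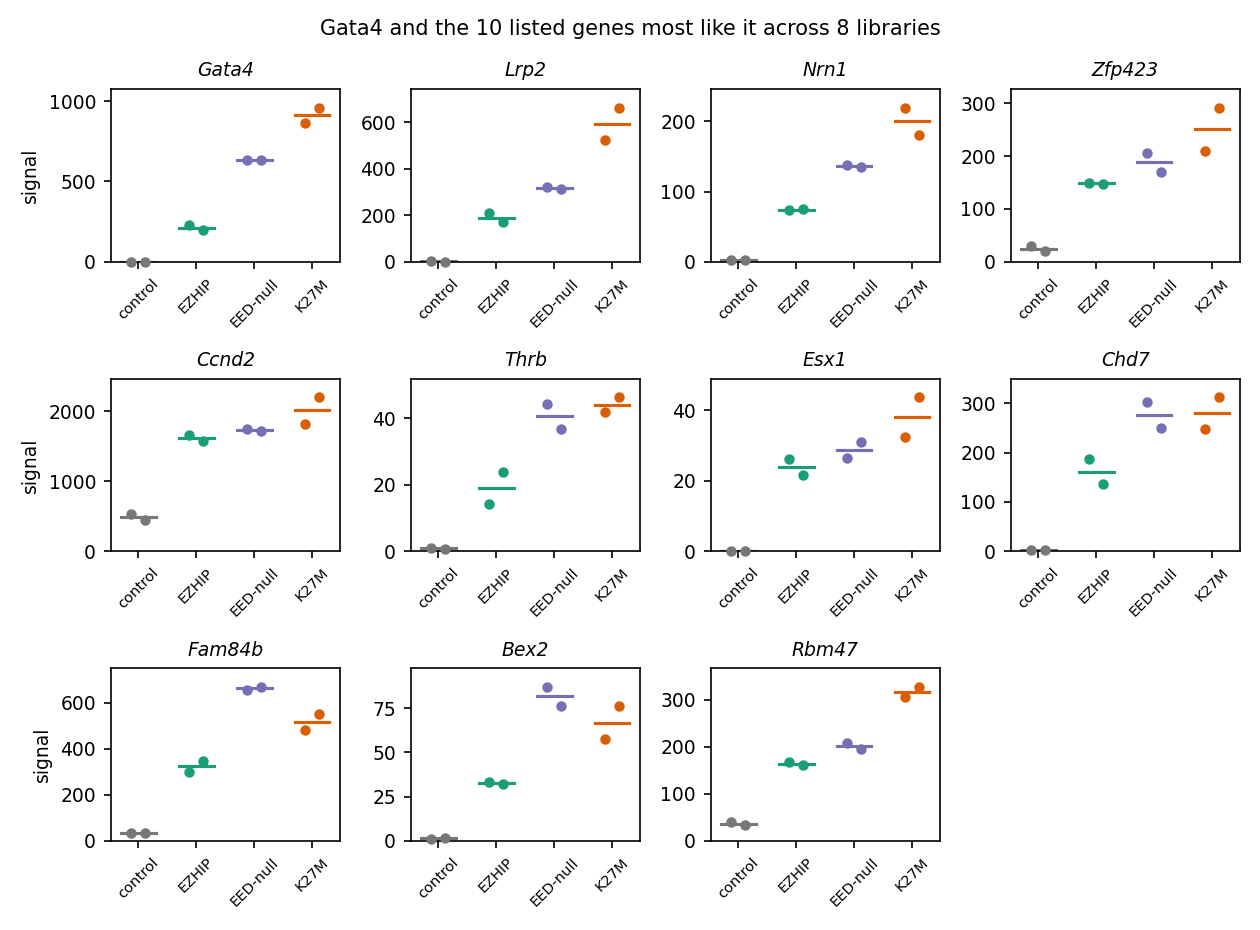
Signal of *Gata4* and of the 10 listed genes with the highest Pearson's r to it, each on its own axis from 0. Points are libraries and horizontal lines group means (n = 2). In *Fam84b* and *Bex2* EED-null cells have the highest mean, and in the other 8 genes K27M cells, as in *Gata4*.

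The table held 29 other genes from 11 lists, of which 22 had a higher mean in EZHIP than in control cells, beside 495 of all 875 genes. This comparison selected the table and was not tested. Over all 875 genes, 41.4% were called higher and 20.0% lower in K27M than in control cells. In EED-null against control cells, 39.9% were called higher and 25.1% lower. In K27M against EED-null cells, 27.8% were called higher and 26.6% lower, and in K27M against EZHIP cells 32.6% and 26.2%. These comparisons share groups and are given side by side. Of the 29 genes, 14 were called higher and 3 lower in K27M than in control cells. In EED-null against control cells, 16 were called higher and 6 lower. In K27M against EED-null cells, 8 were called higher and 12 lower. When libraries were rescaled on the listed genes, the median log2 difference of all genes moved by −0.43 for K27M minus control, −0.39 for EED-null minus control and −0.12 for K27M minus EZHIP. With it the share of higher calls among the genes called in K27M against control cells went from 67.4% to 55.6%. In EED-null against control cells the calls went from 349 higher and 220 lower to 311 and 281, and in EED-null against EZHIP cells from 220 and 173 to 197 and 191. The small majorities of higher calls in K27M against EZHIP cells, 285 to 229, and against EED-null cells, 243 to 233, turned to 256 against 258 and 235 against 242. The rescaling sets the typical listed gene to an equal level in all libraries. Medians nearer to 0 and more even splits thus follow in part from its construction, and a real skew would be removed as well. Which of the 2 scalings is nearer to the true levels was not tested. The p-values measure the spread between 2 libraries of each group, which the labels do not describe as separate cultures.

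Of 25 GATA factors and partners, 4 were in the table, *Gata4* itself and its partners *Tbx20*, *Mef2c* and *Isl1*. No other GATA factor was listed. All 3 partners were called higher in K27M and in EED-null than in control cells, beside 41.4% and 39.9% of all 875 genes. All 3 also had a higher mean in EZHIP than in control cells, the comparison that selected the table. The control libraries are shared, so these calls against control are not independent of that selection. The 3 partners were also called higher in EED-null than in EZHIP cells, as *Gata4* was, beside 25.1% of all 875 genes. Unlike *Gata4*, the 3 partners had their highest means in EED-null cells. *Tbx20* and *Isl1* were called lower in K27M than in EED-null cells, as were 26.6% of all 875 genes. The median log2 difference of the 3 partners was −1.59 in K27M against EED-null cells. It was −1.60 with genes at or under 3 reads set to that limit, beside 0.01 and −0.02 over all 875 genes.

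*Tbx20*, a T-box regulator of the heart, was at 0 in both control libraries. It had 30.8 and 52.4 in the EZHIP libraries, 161 and 178 in the EED-null libraries, and 13.9 and 21.0 in the K27M libraries. Against a limit of 3 reads in each control library, the EED-null mean was at least 64.0-fold higher and the K27M mean at least 6.59-fold higher. Among the 3 lines *Tbx20* was thus lowest in K27M cells, where *Gata4* was highest. *Isl1*, which encodes a LIM homeodomain protein of cardiac and motor neuron progenitors, was also at 0 in both control libraries. It had 54.4 and 33.1 in EZHIP, 155 and 144 in EED-null, and 44.5 and 54.2 in K27M libraries, so that EZHIP and K27M cells overlapped. Its EED-null mean was at least 56.6-fold above the control limit. *Mef2c*, a MADS-box regulator of muscle, was detected in control at 98.5 and 84.9. It had 243 and 207 in EZHIP, 518 and 416 in EED-null, and 270 and 213 in K27M libraries. *Mef2c* was called higher in EED-null than in control cells with a log2 difference of 2.33, and its other calls were nearer to 2-fold. Its log2 difference between EED-null and EZHIP cells was 1.05, and fell under 1 after rescaling, with 0.97, without the second EZHIP library, with 0.93, and without the first EED-null library, with 0.89. Its rise in K27M over control cells was 1.38, and 0.93 after rescaling. Its K27M minus EED-null difference of −0.95 was under 2-fold, and reached −1.01 after rescaling, −1.12 without the first K27M library and −1.11 without the second EED-null library.

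Of 27 genes of cardiac muscle, for which GATA4 is a known regulator, only *Ankrd1* was in the table, and the levels of the other 26 were not analysed here. *Ankrd1*, which encodes a stress-responsive protein of muscle nuclei and sarcomeres, had 98.5 and 105 in control cells, 272 and 312 in EZHIP, 73.5 and 50.4 in EED-null, and 33.4 and 30.6 in K27M libraries. It was called lower in K27M than in control cells, with a log2 difference of −1.64. Against control, EED-null cells gave −0.73, under 2-fold, and −1.12 after rescaling. K27M cells, where *Gata4* was highest, thus had the lowest *Ankrd1*. The K27M minus EED-null difference was −0.91, and −1.18 without the second EED-null library.

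Of 25 endoderm genes, *Foxa1* and *Cxcr4* were in the table. Both were called higher in EED-null than in control cells, beside 39.9% of all 875 genes. They were called lower in K27M than in EED-null cells, beside 26.6%. Both had a higher mean in EZHIP than in control cells, the comparison that selected the table. The control libraries are shared, so the calls against control are not independent of that selection. *Foxa1*, which encodes a forkhead factor that opens chromatin, was at 0 in both control libraries. It had 36.7 and 47.9 in EZHIP, 141 and 147 in EED-null, and 13.0 and 15.7 in K27M libraries. *Foxa1* was also called higher in K27M than in control cells, at least 5.43-fold above a limit of 3 reads in each control library. *Cxcr4*, a chemokine receptor gene, had 0 and 2.95 in control cells, 23.7 and 11.4 in EZHIP, 243 and 204 in EED-null, and 5.56 and 4.37 in K27M libraries. Its log2 difference of 1.58 between K27M and control cells did not pass the test, with a limma adjusted p of 0.0657. It passed with a trend on expression, at 0.0331, and without the second control library, at 0.00304 with a difference of 2.57. Without the first control library the difference was 0.59, with an adjusted p of 0.257.

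Of 25 gonad and urogenital genes, 6 were in the table, where 3 were called higher in K27M than in control cells and 5 in EED-null cells, and none lower. Over all 875 genes, 41.4% and 39.9% were called higher and 20.0% and 25.1% lower. All 6 had a higher mean in EZHIP than in control cells, the comparison that selected the table. The control libraries are shared, so the absence of lower calls is not independent of that selection. In K27M against EED-null cells, 2 of the 6 were called higher and 3 lower, beside 27.8% and 26.6% of all 875 genes. *Wt1* was the highest in K27M cells, with 1013 and 1277 against 58.2 and 62.0 in EED-null cells. *Fst*, which encodes the activin antagonist follistatin, had 17.5 and 15.5 in control cells, 59.2 and 73.0 in EZHIP, 95.7 and 81.4 in EED-null, and 272 and 270.3 in K27M libraries. Both shared with *Gata4* the highest level in K27M cells. *Foxl2*, which encodes an ovarian forkhead factor, went the other way. It was at 0 in both control and both K27M libraries, and had 21.3 and 22.8 in EZHIP and 105 and 82.4 in EED-null libraries. Against a limit of 3 reads in each library, the K27M mean of *Foxl2* was at least 34.7-fold lower than the EED-null mean. *Inhbb*, which encodes an inhibin and activin subunit, had 18.5 and 18.5 in control cells, 405 and 394 in EZHIP, 495 and 452 in EED-null, and 60.3 and 55.9 in K27M libraries. *Sox9*, a regulator of testis and cartilage, was called higher in EED-null than in control cells, with 83.2 and 71.7 against 18.5 and 28.8, and had 95.9 and 100.3 in EZHIP and 26.9 and 25.4 in K27M libraries. *Inhba*, another activin subunit gene, was called neither in K27M nor in EED-null against control cells. The median log2 difference of the 6 was 0.89 in K27M and 3.48 in EED-null against control cells, and 0.90 and 3.47 with genes at or under 3 reads set to that limit. Over all 875 genes it was 0.58 and 0.40, or 0.56 and 0.41 with that limit.

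BMP signals are known to induce *Gata4* in heart and foregut progenitors. Of 40 genes of the BMP and TGF-beta pathway, 10 were in the table. In K27M against control cells 4 were called higher and 1 lower, beside 41.4% and 20.0% of all 875 genes. In EED-null against control cells 4 were called higher and 3 lower, beside 39.9% and 25.1%. The median log2 differences of the 10 were 0.33 and −0.30, and 0.36 and −0.31 with genes at or under 3 reads set to that limit. Over all 875 genes they were 0.58 and 0.40, or 0.56 and 0.41 with that limit. The ligand gene *Bmp7* had 0 and 2.21 in control cells, 41.4 and 49.0 in EZHIP, 72.1 and 48.5 in EED-null, and 18.5 and 14.9 in K27M libraries. Its K27M minus EED-null difference was −1.77, with a limma adjusted p of 0.0228. With a pseudocount of 0.1 it was −1.83, with a limma adjusted p of 0.276. The call was also lost without the first EED-null library, at a difference of −1.49. Without the first and without the second K27M library it was lost at −1.92 and −1.62. The difference thus stayed about as large where the call was lost. *Nog*, which encodes the BMP antagonist noggin, followed the order of *Gata4*, with 5.13 and 5.90 in control cells, 43.8 and 55.9 in EZHIP, 90.1 and 94.0 in EED-null, and 161 and 141 in K27M libraries. The antagonist gene *Grem1* was called higher in EED-null than in control cells, with 479.7 and 426 against 124 and 107, and had 341 and 316 in EZHIP and 182 and 149 in K27M libraries. *Bmper*, a modulator of BMP signals, was called higher in K27M than in control cells, with a log2 difference of 1.30 that was 0.85 after rescaling, and had 47.2 and 50.9 in control cells, 186 and 152 in EZHIP, 40.2 and 35.9 in EED-null, and 107 and 139.9 in K27M libraries. The signal transducer gene *Smad9* was called lower in EED-null than in control cells, with 40.2 and 53.3 against 188 and 187. It had 30.8 and 39.9 in EZHIP and 122 and 154 in K27M libraries.

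Among targets of the pathway, *Msx1*, a homeobox gene, had 4.11 and 0.738 in control cells, 292 and 318 in EZHIP, 424 and 417 in EED-null, and 36.2 and 29.7 in K27M libraries. *Hey1*, which encodes a repressor known to act on GATA4 in the heart, was called lower in both K27M and EED-null than in control cells. It had 301 and 249 in control, 29.6 and 13.7 in the EZHIP libraries, and between 27.9 and 40.2 in the K27M and EED-null libraries. Its relative *Hey2* had 66.3 and 46.7 in EZHIP libraries against 17.5 and 17.0 in control. It had 5.55 and 3.88 in EED-null, and 10.2 and 6.99 in K27M libraries. *Hey2* was called lower in EED-null cells, while its difference of −0.94 in K27M cells was under 2-fold and reached −1.37 after rescaling, −1.19 without the first K27M library and −1.02 with a pseudocount of 0.1. The antagonist gene *Chrdl1* was called neither in K27M nor in EED-null against control cells. Of 25 Polycomb genes and enzymes of H3 lysine 27, only *Phf19*, which encodes a PRC2 accessory protein, was in the table. It had 311 and 275 in control cells, 112 and 123 in EZHIP, 229 and 204 in EED-null, and 339 and 327 in K27M libraries, with no call between K27M or EED-null and control cells.

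**Figure D4:**
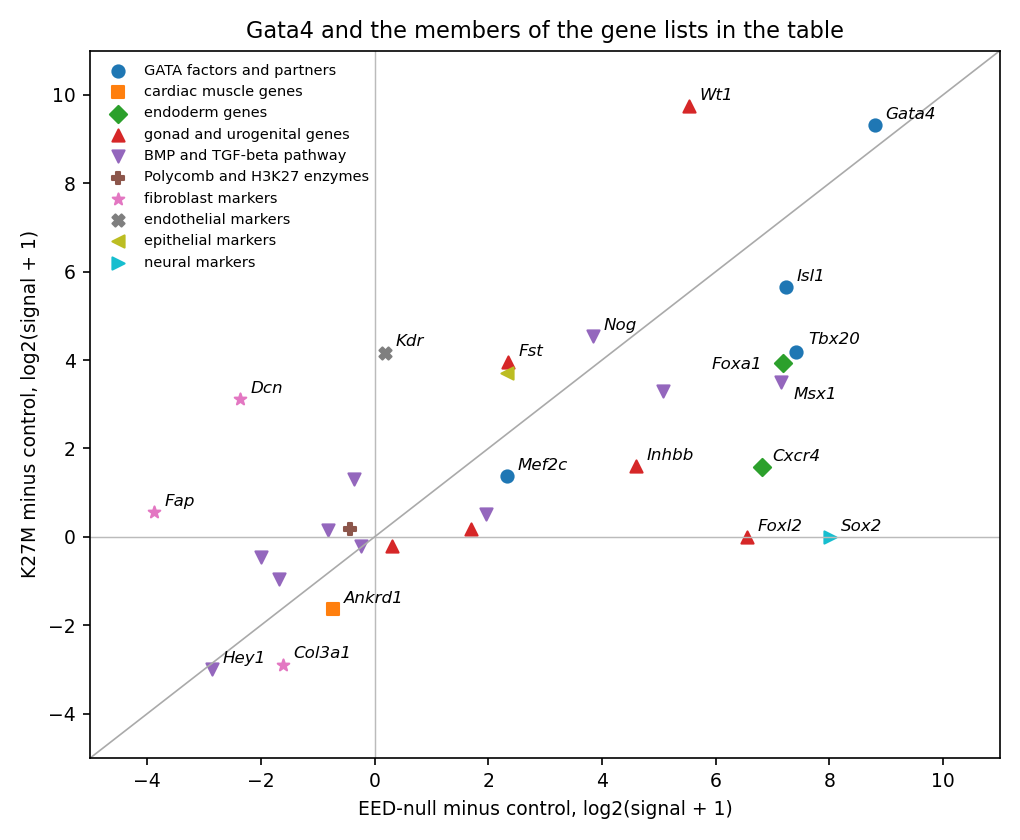
Log2 differences from control, on log2(signal + 1), in EED-null cells (x axis) and K27M cells (y axis) for *Gata4* and the 29 other list members in the table, marked by list, with the line of equal difference. For genes at 0 in control the position depends on the pseudocount of 1. *Gata4* lies near the line, *Wt1* and *Dcn* above it, and *Sox2*, *Foxl2* and *Cxcr4* below it.

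The labels name the cells fibroblasts. Of 20 fibroblast markers, 3 were in the table, *Col3a1*, *Dcn* and *Fap*, all lower in EZHIP than in control cells, and the other 17 were not analysed here. *Col3a1*, a fibrillar collagen gene, was the most abundant of them in all libraries except those of K27M cells, with 17665 and 17245 in control cells, 6797 and 6268 in EZHIP, 5733 and 5641 in EED-null, and 2206 and 2517 in K27M libraries. *Dcn*, which encodes the proteoglycan decorin, was called in opposite directions against control. It had 364 and 380.1 in control cells, 129 and 179 in EZHIP, 69.3 and 73.6 in EED-null, and 3192 and 3255 in K27M libraries. *Fap*, a surface protease gene, had 82.1 and 94.5 in control cells, 8.28 and 13.7 in EZHIP, 2.77 and 8.72 in EED-null, and 162 and 104 in K27M libraries. The summed signal of the 3 was 18112 and 17719 in control cells, 6934 and 6460.4 in EZHIP, 5805 and 5723 in EED-null, and 5560.5 and 5876 in K27M libraries.

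Of the markers of other cell types, 1 of 8 endothelial, 1 of 8 epithelial, 1 of 8 neural and 0 of 8 immune genes were in the table. *Kdr*, an endothelial receptor gene, had 9.24 and 9.60 in control cells, 52.1 and 51.3 in EZHIP, 11.1 and 10.7 in EED-null, and 157 and 222 in K27M libraries. *Epcam*, an epithelial adhesion gene, had 6.16 and 3.69 in control cells, 21.3 and 10.3 in EZHIP, 38.8 and 20.3 in EED-null, and 68.6 and 81.3 in K27M libraries. Its K27M minus EED-null difference of 1.38 passed the test at an adjusted p of 0.0282, and did not without the second EED-null library, at 0.139, the first K27M library, at 0.0744, or the second K27M library, at 0.116. *Sox2*, a neural and stem cell regulator gene, was at 0 in both control and both K27M libraries, with 166 and 137 in EZHIP and 245 and 270.2 in EED-null libraries. *Kdr* and *Epcam* were thus highest in the K27M libraries, as *Gata4* was, while *Sox2* was not detected there. The part of such cells in the *Gata4* levels was not tested.

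No listed gene lay close to *Gata4*. Of 15 other protein-coding genes within 500 kb, 0 were in the table. The nearest listed genes were *Tnfrsf19*, 2152 kb away towards lower coordinates, and *Scara5*, 2395 kb away towards higher ones, and next to them *Gm6907* and *Scara3*. *Gm6907*, a predicted gene, had 41.5 and 27.4 in control cells, 12.6 and 12.5 in EZHIP, 18.0 and 22.3 in EED-null, and 53.2 and 58.8 in K27M libraries, so that it too was highest in K27M cells, but it was lowest in EZHIP cells. *Tnfrsf19*, a TNF receptor family gene, had 42.1 and 34.7 in control cells, 185 and 169.9 in EZHIP, 66.5 and 72.7 in EED-null, and 27.8 and 35.0 in K27M libraries. *Scara5*, a scavenger receptor gene, had 178 and 162 in control and between 8.32 and 47.3 in the libraries of the 3 lines. *Scara3* had 1051 and 1047 in control cells, 490 and 438 in EZHIP, 1167 and 1142 in EED-null, and 598 and 653 in K27M libraries.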

How the data were processed

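RNA of 8 libraries had been depleted of ribosomal RNA. The authors estimated reads per gene with RSEM 1.2.4 on mm9, per the submitters' processing notes, and tested genes with EBSeq. The deposited signal is these estimates divided by 1 size factor per library. Within each library, values were multiples of 0.01 of a fixed step, taken as 1 read, and 72.2% to 82.5% of them were whole reads within 0.0001 of a read. Replicates differed by more than sampling noise, with a chi-square per gene between 1.57 in control and 3.64 in K27M cells.

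Groups were taken from the labels. The test was that of limma (version 3.58.1, under R 4.3.3) on log2(signal + 1), which understates changes of low genes. The model had 4 group means, and all 8 libraries shared an estimate of the spread. P-values were adjusted by Benjamini-Hochberg over 875 genes, and calls needed an adjusted p under 0.05 and at least 2-fold. The fit was tested on simulated data. EZHIP against control was not tested, since it selected the table. An exact permutation test of 2 against 2 libraries cannot go below 0.333. Ratios to control have exact conditional binomial 95% intervals, for counting error only. Python 3.11.15 served for the other values, with scipy 1.17.1, numpy 2.4.6 and pandas 2.3.3, and matplotlib 3.10.9 for the figures. Named genes are the 10 with the highest r to *Gata4*, the 10 with the highest K27M mean among genes with at most 3 reads in each control library and highest in K27M cells, the list members in the table, and the 2 nearest listed genes on either side. *Gata4*, the rules and the lists were chosen with earlier results of these data known, and the mesothelial list later still. Positions came from a GENCODE annotation of mm9. A list member that entered the counts is not reported by name here.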

Additional observations from a re-analysis of the deposited data

Results flagged for a closer look

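Differences between lines that passed limma's test are given here as log2 differences on log2(signal + 1), with no explanation. EED-null exceeded EZHIP cells by 1.58 for *Gata4*, 2.05 for *Tbx20*, 1.79 for *Isl1* and 1.05 for *Mef2c*, the last of these under 2-fold after rescaling. For this comparison only *Gata4* and its partners are listed. Of the 29 other list genes, 8 were called higher and 7 lower in EED-null than in EZHIP cells. Over all 875 genes, 25.1% were called higher and 19.8% lower.

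K27M minus EED-null was −3.23 for *Tbx20*, −1.59 for *Isl1*, −3.25 for *Foxa1* and −5.24 for *Cxcr4*. Among gonad and urogenital genes it was 4.22 for *Wt1* and 1.61 for *Fst*, against −1.53 for *Sox9*, −3.003 for *Inhbb* and −6.56 for *Foxl2*. In the BMP and TGF-beta pathway it was 1.66 for *Bmper* and 1.55 for *Smad9*, against −1.77 for *Bmp7*, −1.45 for *Grem1* and −3.64 for *Msx1*. Among cell type markers it was 5.48 for *Dcn*, 4.43 for *Fap*, 3.98 for *Kdr* and 1.38 for *Epcam*, against −1.27 for *Col3a1* and −8.01 for *Sox2*. The values of *Foxl2* and *Sox2*, which were at 0 in K27M cells, depend on the pseudocount. Against a limit of 3 reads in each library, *Sox2* was at least 95.4-fold lower. The calls of *Bmp7* and *Epcam* were lost without single libraries, as given above.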

How the results depend on the processing

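The *Gata4* difference between EED-null and EZHIP cells kept its direction under all 15 alternatives and its call under 14. With a pseudocount of 0.1 it was 1.58 with an adjusted p of 0.237. With each library left out it ranged from 1.48 to 1.68, with adjusted p from 0.000468 to 0.0296, where a lone library was assumed to vary like the other groups. The differences of K27M from EZHIP and from EED-null cells, 2.10 and 0.52, ranged from 1.96 to 2.20 and from 0.45 to 0.60, with the lowest value of the former after rescaling. With each library left out, the lower limit of the ratio to control ranged from 36.7 to 93.4 for EZHIP, 110 to 264 for EED-null and 159 to 401 for K27M cells, lowest without the second control library, whose 0 reads add depth but no count.

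Same-numbered replicates did not deviate together, with correlations between −0.09 and 0.11, so the numbers pair no samples. With the replicate block the *Gata4* difference was 1.58 with an adjusted p of 0.00726, and the calls numbered 536, 566, 513, 475 and 389 in K27M against control, EED-null against control, K27M against EZHIP, K27M against EED-null and EED-null against EZHIP, beside 537, 569, 514, 476 and 393 without it. The adjusted p alone gave 601 calls in EED-null against EZHIP cells. Spearman's rho shared 2 and a pseudocount of 5 shared 8 of the 10 genes most like *Gata4*. The count of 2 depends on how genes tied in rho were ordered. Genes near zero in control and highest in K27M cells numbered 20, or 35 with up to 10 control reads and 18, without *Gata4*, with a K27M mean at least 1.5 times the next. Of 2175 alternative values for the other list members, 22 lost and 34 gained a call, and 0 reversed. Without *Msln*, an alternative chosen after seeing the data, the mesothelial sum was 16.0 times as high in K27M as in EZHIP cells, beside 2.59 with it.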

Other observations

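Of the 101 genes with at most 3 reads in each control library, 78 had more than 3 reads in at least 1 library of every line, as *Gata4* did. In both K27M libraries 17 of the 101 were at or under 3 reads, and in both EED-null libraries 8 were. In both EZHIP libraries 0 were, in a table selected on the difference between EZHIP and control cells.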
